A study of Mus musculus with 16 samples.

Results

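The endothelial lineage transcription factors considered here are 10 genes of 4 groups: the ETS factors Erg, Fli1 and Ets1, the SOXF factors Sox7, Sox17 and Sox18, the blood and vessel regulators Tal1 and Gata2, and the Krüppel-like factors Klf2 and Klf4. They were taken by symbol from a deposited table of 17715 entries, all 10 were found, and all 10 passed the filter on low values. The table covers lung endothelial cells, sorted by fluorescence from female C57BL/6N mice. Group d0 had no tumour, d15 carried a primary tumour grown from LLC cells (Lewis lung carcinoma) injected under the skin, d22 was sampled after that tumour had been resected, and d36 had metastases. Each group had 4 libraries from independent biological replicates, 16 in all, and the labels name no transgene. The title of d36 replicate 1 names day 29, and its time point field, followed here, reads d36. Neither the age of the mice nor the gate of the sort is given in the labels.

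ETS factors bind a short purine-rich core element that is found in most endothelial genes, and Erg and Fli1 are known for holding adult endothelial cells in their identity. SOXF factors take part in arterial and lymphatic development, while Tal1 and Gata2 work in shared complexes with LIM-domain partners in blood-forming and endothelial cells. Klf2 and Klf4 are switched on by laminar blood flow through a kinase cascade that ends at MEF2 factors, and they favour an anticoagulant and anti-inflammatory state of the vessel wall.

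Values are RPKM, reads per kilobase of transcript per megaread, and are given as mean ± SD of 4 libraries. Fold changes come from a limma fit on log2(RPKM + 1) with their standard error, and a gene was called at an adjusted p below 0.05 over all 14303 entries tested. Depth, estimated from the smallest steps of the values, was approximately 93.4 to 152.1 M (mega) reads per library. Even Tal1, the lowest factor, then rested on at least 162 reads per kilobase in each library. Libraries of 1 group correlated across genes at 0.978 to 0.990 at d0, d15 and d22 and at 0.920 to 0.984 at d36. In bulk samples such as these, fewer cells of a type and less RNA per cell cannot be told apart.

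At d0 the factors spanned a wide range of levels per transcript length. Sox18 was highest at 113 ± 42.9 RPKM, followed by Klf4 at 103 ± 11.2, Gata2 at 69.6 ± 2.88 and Klf2 at 68.0 ± 7.31. Sox7 (37.0 ± 2.19) and Fli1 (29.5 ± 3.49) lay in the middle, Erg stood at 14.2 ± 1.39, and Sox17 (5.18 ± 0.843), Ets1 (4.37 ± 1.28) and Tal1 (2.04 ± 0.261) were low. The range of the d0 libraries of Sox18 overlapped with those of Klf4, Gata2 and Klf2, and so did the ranges of Gata2 and Klf2 and of Sox17 and Ets1. Of all entries, 98.0% had a lower d0 mean than Sox18 and 44.7% a lower one than Tal1.

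**Figure D1:**
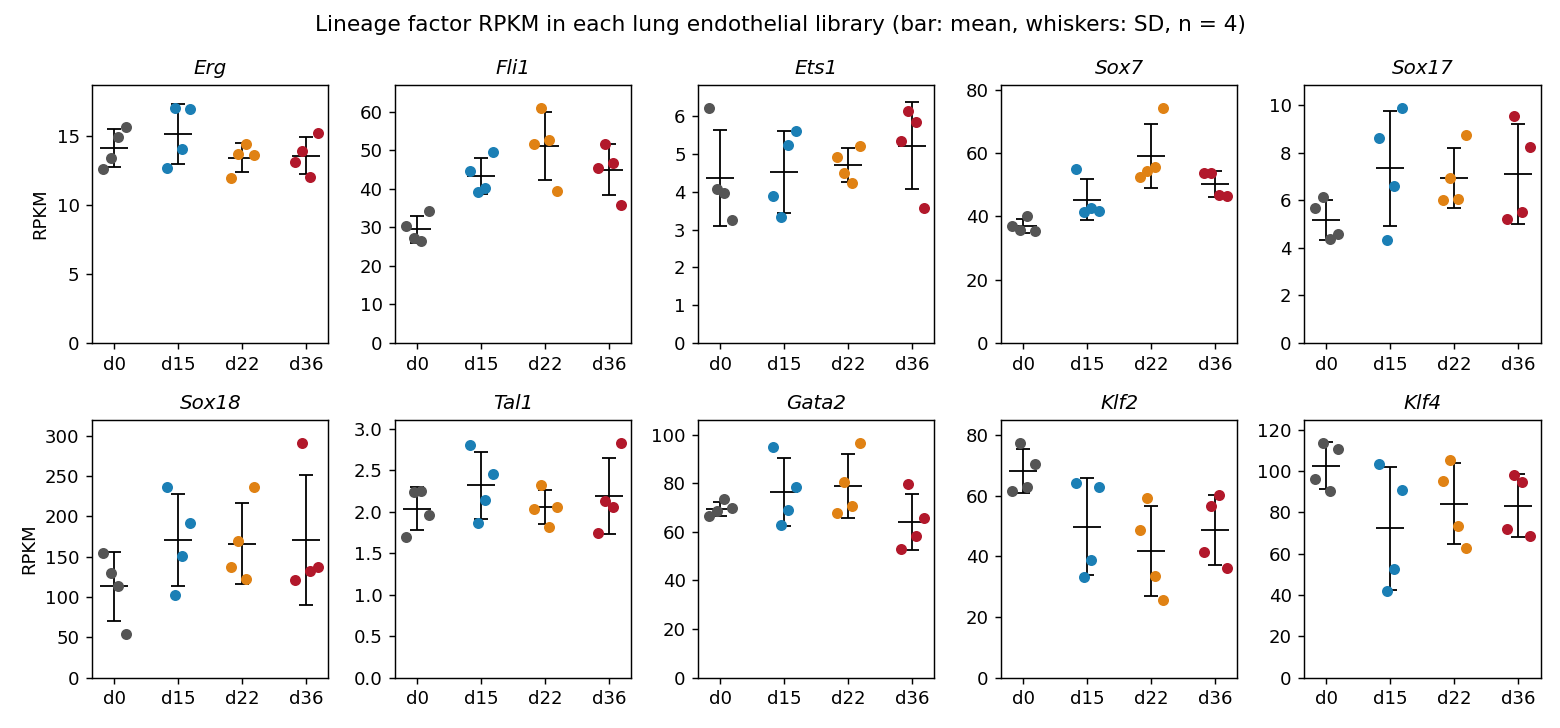
RPKM of each factor (y axis, from 0) in every library by group (x axis), with the mean as a bar and the SD as whiskers. All later Fli1 and Sox7 points lie above the highest d0 point, all d22 and d36 Klf2 points lie below the lowest, and the Erg and Tal1 groups overlap throughout.

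Fli1 and Sox7 were called higher in d22 and d36, and Klf2 was called lower in d22. No change of the other 7 factors was called against d0. The Klf2 call was near the threshold (limma adjusted p = 0.0498) and was kept in 1 of 8 fits that left out 1 library. With a trend in transcript length and GC content removed, it and both d36 calls were lost. In d15 none of the 10 was called, against 0.608% of all tested entries called higher and 0.573% lower. At an unadjusted p below 0.05 there were 3: Fli1, Sox7 and Klf4. In d22 Fli1 and Sox7 were higher, 2 of 10 against a background of 8.09%, and Klf2 was lower, 1 of 10 against 7.1%. In d36 Fli1 and Sox7 were higher again, 2 of 10 against 16.6%, and 0 were lower against 7.37% (0 at an unadjusted p below 0.05 as well). Over the 3 contrasts with d0 the F test called Fli1 (adjusted p = 0.00443) and Sox7 (adjusted p = 0.00611), 2 of 10 against 28.7% of all entries. That share of the factors was below the share of all entries, and the share called higher in d36 was close to its background.

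Between the later groups limma called 0 factors. The background was 2% higher and 1.06% lower for d22 against d15, 9.87% and 1.64% for d36 against d15, and 8.73% and 3.07% for d36 against d22. The unadjusted p was below 0.05 for 1 factor, Sox7, in d22 against d15 (log2 fold change 0.37 ± 0.12, adjusted p = 0.0964), and for 0 in the other pairs. Ranges that did not overlap those of d0 were found for 2 factors on the high side in each later group, Fli1 and Sox7 each time, where 5.34%, 14.2% and 13.9% of all entries did so in d15, d22 and d36. On the low side there were 0 in d15, 1 in d22 and 1 in d36, Klf2 in both cases, against 6.94%, 12.3% and 7.47% of entries. The d0 libraries are shared by the 3 contrasts, so these results are not independent of each other.

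**Figure D2:**
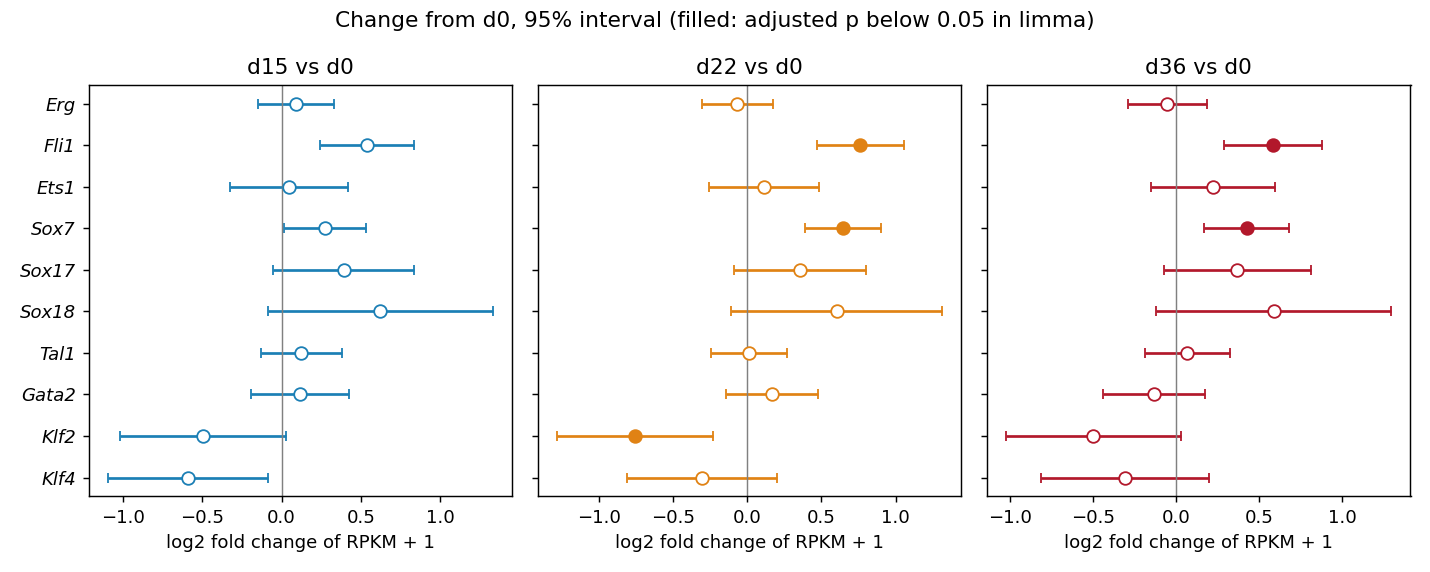
Log2 fold change from d0 on the RPKM + 1 scale (x axis) of each factor (y axis) in d15, d22 and d36, with its 95% interval; filled points have an adjusted p below 0.05. Fli1 at 0.76 and Klf2 at -0.75 are the most displaced called points of d22, and the widest intervals are those of Sox18.

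Fli1, the ETS factor that with Erg maintains endothelial identity, read 30.2, 27.1, 26.5 and 34.1 RPKM in the d0 libraries and 44.5, 39.0, 40.2 and 49.4 in d15. It read 51.6, 60.8, 52.5 and 39.4 in d22 and 45.4, 51.6, 46.8 and 35.8 in d36. Every later library was above the highest d0 library, and the 3 later groups overlapped with each other. The group order was d22 (51.1 ± 8.83), d36 (44.9 ± 6.63), d15 (43.3 ± 4.71) and d0 (29.5 ± 3.49), with only d22 and d36 parted from d0 by the test. The log2 fold change was 0.54 ± 0.14 in d15 (adjusted p = 0.0683), 0.76 ± 0.14 in d22 (adjusted p = 0.0025) and 0.58 ± 0.14 in d36 (adjusted p = 0.00686). The d22 value is a 1.70-fold rise, with a 95% interval from 1.38 to 2.08. The d15 value passed the threshold when the 4 d36 libraries were left out (adjusted p = 0.0314), a fit added after the data had been seen. That fit called 342 entries higher in d15, where the main fit called 87. The d36 call of Fli1 was lost with a trend in transcript length and GC content removed, as given below.

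Erg, the closest relative of Fli1 among the 3, showed no such rise. Its libraries read 12.6, 13.4, 14.96 and 15.7 RPKM in d0, 12.7, 17.0, 14.1 and 17.0 in d15, 11.998, 13.7, 14.5 and 13.7 in d22, and 13.1, 13.9, 12.1 and 15.3 in d36. All 4 groups overlapped, and the whole range over 16 libraries was 1.42-fold, the narrowest of the 10 factors. The 95% interval of the fold change against d0 ran from 0.902 to 1.26 in d15, from 0.809 to 1.13 in d22 and from 0.816 to 1.14 in d36, so that a change as large as the 1.70-fold of Fli1 lay outside it each time. The ratio of Fli1 to Erg RPKM moved from 2.09 ± 0.263 in d0 to 2.89 ± 0.498 in d15, 3.81 ± 0.713 in d22 and 3.34 ± 0.691 in d36. Its lowest d22 library (2.88) was above its highest d0 library (2.40), while in d15 and d36 the ranges overlapped with d0. No test was made of the ratio.

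Ets1, an ETS factor of growing and inflamed vessels, was low in all groups, between 3.26 and 6.21 RPKM, and both of these extremes lay in d0. Its means were 4.37 ± 1.28, 4.52 ± 1.08, 4.71 ± 0.441 and 5.22 ± 1.15 RPKM from d0 to d36. The log2 fold change in d36 was 0.22 ± 0.18 (adjusted p = 0.39), and 0.39 with limma array weights (adjusted p = 0.0389). The fit with array weights called 3602 entries higher and 2084 lower in d36, where the main fit called 2376 and 1054. Ets1 was called in 0 of 8 fits that left out 1 library of d0 or d36. Fli1 and Ets1 are neighbours on chromosome 9 (mm10): Fli1 lies from 32422204 to 32542861 on the minus strand and Ets1 from 32636221 to 32757820 on the plus strand, both protein coding in GENCODE. Across the 16 libraries Erg and Ets1 ran against each other (Pearson r = -0.47, as a description). Fli1 held 61.3 ± 2.48% of the summed RPKM of the 3 factors in d0 and 73.4 ± 4.10% in d22.

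Of the other ETS family genes, 11 of 22 listed were tested. In d15, 0 were called, with 1 at an unadjusted p below 0.05. In d22, 2 rose and 0 fell: Gabpa, a broadly expressed ETS factor (1.52 ± 0.0976 to 2.77 ± 0.434 RPKM, adjusted p = 0.0107), and Elk4, a partner of serum response factor (adjusted p = 0.0486). In d36, 2 rose and 0 fell: Gabpa (to 3.85 ± 0.923 RPKM, adjusted p = 0.000295) and Etv5 (1.57 ± 0.394 to 3.06 ± 0.660 RPKM, adjusted p = 0.0109). The list median was 0.03 in d22 and 0.19 in d36, beside 0.02 and 0.04 over all entries tested. Of all entries tested, 0.608%, 8.09% and 16.6% were called higher in d15, d22 and d36, and 0.573%, 7.1% and 7.37% lower. In the main fit these shares apply to each gene list below as well. After a trend with transcript length and GC content had been removed, 0 of the 11 were called in d22.

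Sox7, a SOXF factor of developing and adult vessels, read 36.9, 35.6, 40.2 and 35.4 RPKM in d0 and 54.9, 41.5, 42.7 and 41.7 in d15. It read 52.3, 54.2, 55.6 and 74.1 in d22 and 53.7, 53.7, 46.6 and 46.5 in d36. All 12 later libraries were above the highest d0 library, and 1 library each in d15 and d22 stood well above its group. The order was d22 (59.0 ± 10.1), d36 (50.1 ± 4.16), d15 (45.2 ± 6.49) and d0 (37.0 ± 2.19), and no neighbouring pair in that order was parted by the test. The log2 fold change was 0.27 ± 0.12 in d15 (adjusted p = 0.268), 0.65 ± 0.12 in d22 (adjusted p = 0.00294) and 0.43 ± 0.12 in d36 (adjusted p = 0.018). Leaving out the d22 library at 74.1 RPKM gave 0.53 in d22, still called. The gene lies on chromosome 14 from 63943673 to 63950732 (mm10), with 1 annotated transcript.

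Sox18, a SOXF factor needed for lymphatic vessels and the most abundant of the 3, read 155, 130, 114 and 53.9 RPKM in d0 and 236, 103, 151 and 192 in d15. It read 137, 169, 122 and 236 in d22 and 121, 291, 132 and 137 in d36. Libraries within a group differed by up to 2.87-fold, and every later group overlapped with d0. The log2 fold change was 0.62 ± 0.34, 0.60 ± 0.34 and 0.59 ± 0.34 in d15, d22 and d36 (adjusted p = 0.372, 0.244 and 0.219), with a 95% interval in d22 from 0.929-fold to 2.48-fold. Without d0 replicate 4, the library at 53.9 RPKM, the 3 values were 0.30, 0.28 and 0.27.

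Sox17, the SOXF factor of arteries, was far below Sox18 in RPKM in every library. It read 5.66, 6.12, 4.36 and 4.59 RPKM in d0, 8.60, 4.31, 6.60 and 9.86 in d15, 6.01, 6.95, 6.06 and 8.73 in d22, and 5.20, 9.52, 5.52 and 8.23 in d36. The later groups reached higher but each overlapped with d0, and the log2 fold changes of 0.39, 0.36 and 0.37 (SE 0.21 each) had an adjusted p of 0.368, 0.27 and 0.218. An exon of Sox17 overlaps Gm37587 on the other strand, and the library kit does not mark strand, so reads of the pair cannot be told apart. Sox18 made up 70.9 ± 9.37% of the summed SOXF RPKM in d0, 75.5 ± 4.54% in d15, 71.0 ± 3.52% in d22 and 73.1 ± 6.32% in d36, with overlapping ranges.

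Sox17 and Sox18 moved together from library to library, with Pearson r = 0.82 and Spearman rho = 0.87 over 16 libraries and r = 0.77 around the group means. Gata2 went with both (r = 0.63 with Sox17 and 0.59 with Sox18). Fli1 and Sox7 had r = 0.62, but -0.29 around the group means, so that they shared their differences between groups and not those within a group. Libraries of 1 group share a time point and may share other features, and these values carry no test. Outside the SOXF group, 3 of 11 listed SOX genes were tested: 0 were called in d15 (1 at an unadjusted p below 0.05), and Sox4, a SOXC factor, rose in d22 (6.02 ± 1.30 to 9.92 ± 2.06 RPKM, adjusted p = 0.0199) and in d36 (adjusted p = 0.00274). With the trend in length and GC content removed, the d22 call of Sox4 was lost (adjusted p = 0.0528), the d36 call was kept (adjusted p = 0.00962), and Sox13 was called lower in d36 (adjusted p = 0.0492).

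**Figure D3:**
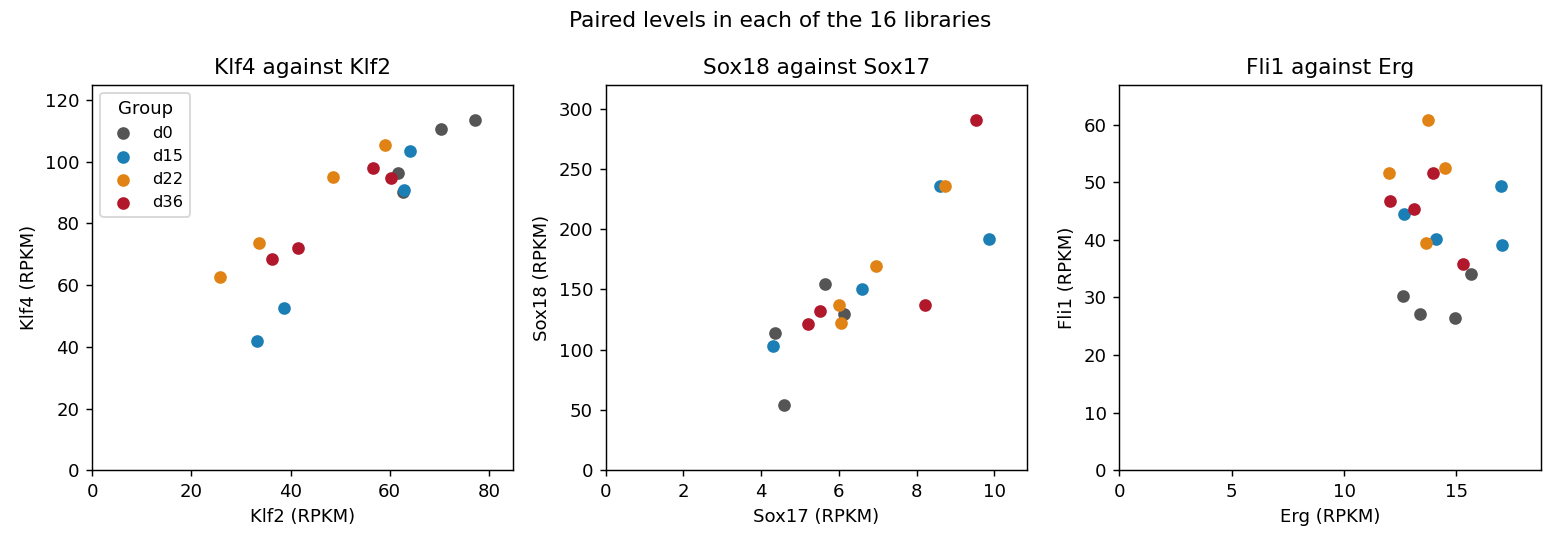
Levels of 3 pairs of factors in RPKM, 1 point per library, coloured by group. Klf4 follows Klf2 (r = 0.84) and Sox18 follows Sox17 (r = 0.82), while Fli1 spreads from 26.5 to 60.8 RPKM over a narrow range of Erg (11.998 to 17.0).

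Gata2, the endothelial GATA factor, was abundant and steady in d0, at 66.6, 68.6, 73.5 and 69.7 RPKM. It read 95.1, 63.0, 69.1 and 78.5 in d15, 67.7, 80.6, 70.6 and 96.5 in d22, and 52.8, 79.5, 58.1 and 65.8 in d36. The 4 groups overlapped, and the spread was wider in each later group (SD 14.0, 12.99 and 11.6) than in d0 (2.88), a difference that was not tested. Its log2 fold change was 0.12, 0.17 and -0.13 (SE 0.15 each; adjusted p = 0.751, 0.487 and 0.541). Between d36 and d22 it was -0.30 ± 0.15 (adjusted p = 0.191), and -0.51 with quantile normalization (adjusted p = 0.0378).

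Tal1, a basic helix-loop-helix factor best known from blood stem cells, was low throughout, from 1.70 to 2.83 RPKM. Its means were 2.04 ± 0.261, 2.32 ± 0.407, 2.06 ± 0.207 and 2.19 ± 0.455 RPKM from d0 to d36, and all groups overlapped. The 95% interval of its fold change against d0 was 0.912 to 1.30 in d15, 0.843 to 1.20 in d22 and 0.876 to 1.25 in d36, on a scale that understates changes of genes this low. Of 16 listed partners and antagonists of these complexes 10 were tested. In d15 limma called 0, with 3 at an unadjusted p below 0.05. In d22, Gata6 (1.97 ± 0.472 to 3.70 ± 0.732 RPKM, adjusted p = 0.00838) and the E protein gene Tcf4 (13.01 ± 2.91 to 21.4 ± 1.66, adjusted p = 0.0133) rose. Id1, an inhibitor of E proteins, fell from 469 ± 27.4 to 322 ± 30.03 RPKM in d22 (adjusted p = 0.0301) and to 289 ± 55.2 in d36 (adjusted p = 0.00445). In d36, 3 of the 10 rose (Tcf12, Tcf4 and Gata6) and 2 fell, against 16.6% of all tested entries called higher and 7.37% lower. In d22 those shares were 8.09% and 7.1%. Once a trend with length and GC content had been removed, the d22 calls of Tcf4 (adjusted p = 0.204) and Id1 (adjusted p = 0.187) were lost and that of Gata6 was kept (adjusted p = 0.01).

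Klf2 and Klf4 had the highest Pearson correlation of any pair of the factors: among 10817 entries with a gene symbol, Klf4 was the entry most like Klf2 over the 16 libraries and Klf2 the one most like Klf4 (Pearson r = 0.84, Spearman rho = 0.81, and r = 0.94 around the group means). Without the 2 libraries farthest from the median of Klf2, r was 0.86. By rank the correlation of Sox17 with Sox18 was higher (rho = 0.87). Because they moved together, the stretches just upstream of both genes are shown, read 5′ to 3′ on the strand of the gene and taken from RefSeq on build GRCm38.p6. The Klf2 stretch is chr8:72318812-72319032 (plus strand, 221 bases, ending where the GENCODE transcript begins), and the Klf4 stretch is chr4:55532476-55532725 (minus strand, 250 bases). Capitals mark the GC box GGGCGG, on either strand, and in Klf2 also a match to the MEF2 consensus.
Klf2: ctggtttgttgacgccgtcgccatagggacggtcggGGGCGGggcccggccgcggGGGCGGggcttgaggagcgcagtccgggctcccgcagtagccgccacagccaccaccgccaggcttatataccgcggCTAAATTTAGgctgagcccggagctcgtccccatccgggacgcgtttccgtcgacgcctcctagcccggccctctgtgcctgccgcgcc
Klf4: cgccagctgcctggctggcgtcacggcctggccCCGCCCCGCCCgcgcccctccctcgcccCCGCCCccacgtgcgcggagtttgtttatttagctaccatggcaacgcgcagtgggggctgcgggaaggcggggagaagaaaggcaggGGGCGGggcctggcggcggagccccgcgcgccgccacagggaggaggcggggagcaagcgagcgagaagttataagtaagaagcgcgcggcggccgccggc

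Both stretches were GC-rich, 71.5% in Klf2 and 74.0% in Klf4. The GC box occurred 2 times in Klf2 and 4 times in Klf4, with 2 of the 4 overlapping, and in 32.7% of all 32851 RefSeq promoters at this length of 250 bases before the start. A match to the MEF2 consensus stood from 118 to 109 bases before the RefSeq start of Klf2, which 2.92% of all promoters had, and none was found in the Klf4 stretch. GC box and MEF2 consensus were searched after these sequences had been seen. Searched on both strands as well were the KLF element CACCC, the ETS element CCGGAA, the SOX elements ACAAAG and ACAATG, the GATA element AGATAA and the E-box CANNTG. Of these, 2 E-boxes in Klf4 were the matches in these windows. All promoters had the KLF element in 52.0%, the ETS element in 12.03%, a SOX element in 25.2%, the GATA element in 9.99% and an E-box in 66.2%. A match of letters is a description and not a binding site.

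Klf2, the flow-induced factor that favours an anticoagulant vessel wall, read 61.6, 77.3, 62.7 and 70.5 RPKM in d0 and 64.2, 33.2, 38.7 and 62.9 in d15. It read 48.6, 59.0, 33.6 and 25.7 in d22 and 41.4, 56.6, 60.3 and 36.3 in d36. All d22 and d36 libraries were below the lowest d0 library, and d15 was split, with 2 libraries inside the d0 range and 2 far below it. The order was d0 (68.0 ± 7.31), d15 (49.7 ± 16.1), d36 (48.7 ± 11.6) and d22 (41.7 ± 14.9), and the test parted only d0 and d22. The log2 fold change was -0.49 ± 0.25 in d15 (adjusted p = 0.334), -0.75 ± 0.25 in d22 (adjusted p = 0.0498) and -0.50 ± 0.25 in d36 (adjusted p = 0.156). In d22 the level was 0.593-fold that of d0, with a 95% interval from 0.412 to 0.853. This call lay at the edge of the threshold: it was lost in 7 of 8 fits that left out 1 library of d0 or d22, with an adjusted p of up to 0.174 (log2 fold change -0.55 without d22 replicate 6).

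Klf4, which shares many targets with Klf2, read 96.3, 113, 90.1 and 110 RPKM in d0 and 104, 41.8, 52.5 and 90.9 in d15. It read 95.1, 106, 73.6 and 62.7 in d22 and 72.0, 98.0, 94.7 and 68.5 in d36. Every later group overlapped with d0, and in each of the 4 groups the 2 libraries lowest in Klf2 were also the 2 lowest in Klf4. The log2 fold change was -0.59 ± 0.24 in d15 (adjusted p = 0.224), -0.30 ± 0.24 in d22 (adjusted p = 0.425) and -0.31 ± 0.24 in d36 (adjusted p = 0.369). The ratio of Klf4 to Klf2 RPKM was 1.51 ± 0.0661 in d0, 1.42 ± 0.150 in d15, 2.09 ± 0.285 in d22 and 1.73 ± 0.130 in d36. Every d22 library (1.79 or higher) was above the highest d0 library (1.568), the lowest d36 library (1.570) lay almost level with it, and no test was made.

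Of 15 listed further KLF genes 9 were tested, and those called rose. Klf9, a factor induced by glucocorticoids, went from 16.02 ± 1.04 RPKM in d0 to 25.3 ± 3.45 in d15 (adjusted p = 0.0297), 23.9 ± 3.14 in d22 (adjusted p = 0.0105) and 28.3 ± 4.90 in d36 (adjusted p = 0.000643). Klf10, induced by TGF-beta, went from 32.9 ± 2.50 to 58.0 ± 16.4 RPKM in d22 (adjusted p = 0.0096) and to 53.2 ± 10.5 in d36 (adjusted p = 0.0137). Klf3 rose in d22 (13.1 ± 1.91 to 19.7 ± 2.48 RPKM, adjusted p = 0.017). That makes 1, 3 and 2 of 9 higher in d15, d22 and d36 and 0 lower. Of all tested entries, 0.608%, 8.09% and 16.6% were called higher. Without the trend in transcript length and GC content, 1 of the 9 was called in d22 (Klf10, adjusted p = 0.0249) and 1 in d36 (Klf9, adjusted p = 0.00892).

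Several genes of the cascade upstream of Klf2 and Klf4 rose in d22, the group in which Klf2 was called lower. Of 13 listed genes 12 were tested, and 0 were called in d15 (2 at an unadjusted p below 0.05), 6 rose and 0 fell in d22, and 4 rose and 0 fell in d36. The list median was 0.36 in d22 and 0.22 in d36. Over all entries tested, 8.09% were called higher in d22 and 16.6% in d36. Mef2a, a MEF2 factor at the end of the cascade, went from 2.00 ± 0.275 to 6.56 ± 0.320 RPKM in d22 (log2 fold change 1.34 ± 0.11, adjusted p = 7.82e-06) and to 7.15 ± 1.16 in d36 (adjusted p = 1.77e-06). Mef2c rose less, from 3.20 ± 0.193 to 5.06 ± 0.303 RPKM in d22 (adjusted p = 0.00212). The kinase genes Map3k2 and Map3k3 rose in d22 by 0.43 and 0.61 on the log2 scale (adjusted p = 0.0152 and 0.016). Heg1 and Pdcd10 belong to the cerebral cavernous malformation pathway, which restrains Klf2 and Klf4. Heg1 went from 67.3 ± 8.71 to 105 ± 8.54 RPKM (adjusted p = 0.00204) and Pdcd10 from 7.36 ± 0.393 to 11.5 ± 1.12 (adjusted p = 0.00175). The list therefore holds genes that act on Klf2 in opposite directions, and Mef2a and Mef2c are also in the list of endothelial factors given further on.

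Changes of all entries went with transcript length and GC content. Across 10113 genes, Spearman's rho of the d22 change was 0.43 with length and -0.37 with GC content, and 0.23 and -0.36 in d36; genes are not independent replicates, and no p is given. With this trend removed, 4 of the 12 upstream genes were called higher in d22 (Mef2a, Map3k3, Pdcd10 and Heg1), 2 in d36, and Mef2c was not (adjusted p = 0.13 in d22). Of the 10113 genes in that fit, 335 were called higher and 424 lower in d22, and 1016 and 1515 in d36. These counts are the background of every list with the trend removed. Fli1 and Sox7 stayed called in d22 (0.62, adjusted p = 0.00995, and 0.65, adjusted p = 0.00672). Klf2 then had a log2 fold change of -0.62 in d22 (adjusted p = 0.0929). In d36 that of Fli1 was 0.30 (adjusted p = 0.0963) and that of Sox7 0.31 (adjusted p = 0.0703), and neither was called.

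**Figure D4:**
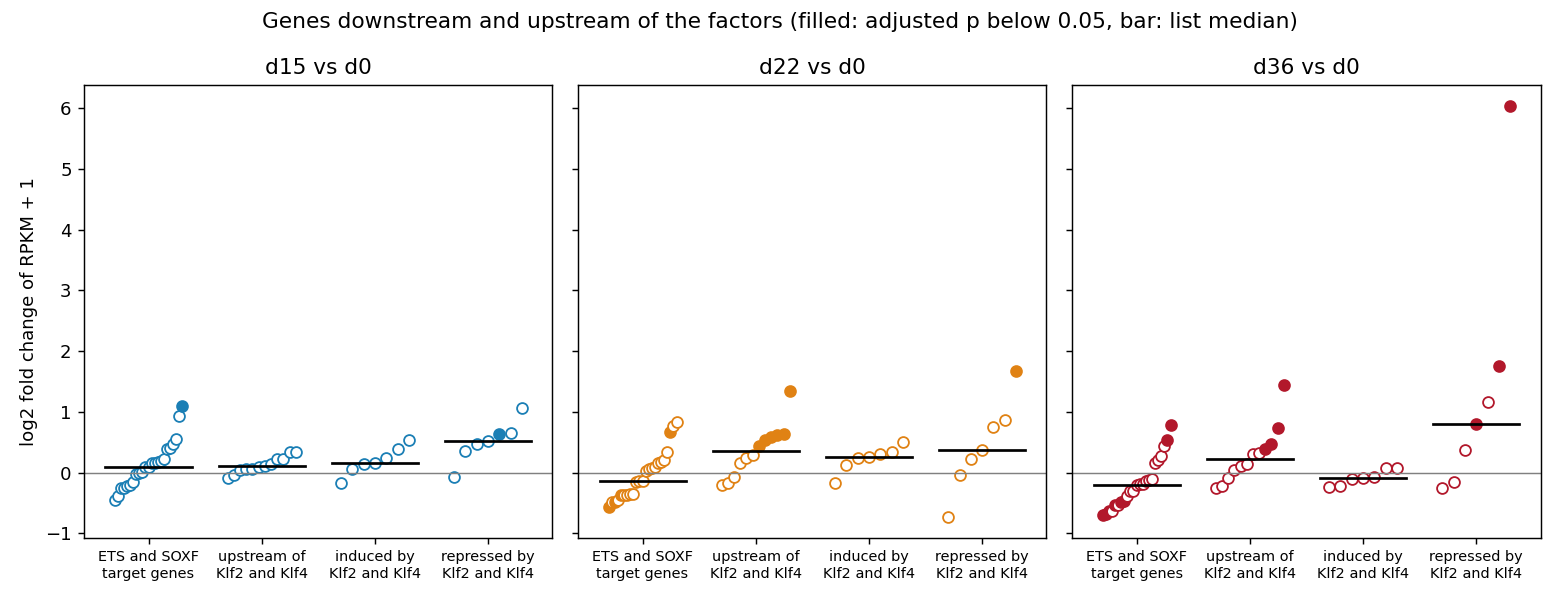
Log2 fold change from d0 on the RPKM + 1 scale (y axis) of each tested gene in 4 lists (x axis) in d15, d22 and d36; filled points have an adjusted p below 0.05 and the black bar is the list median. In d22, 6 of 12 upstream genes are filled above 0, none of the 7 genes induced by Klf2 and Klf4 is filled, and in d36 6 of 23 ETS and SOXF target genes are filled below 0.

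Genes known to be induced by Klf2 and Klf4 were not called in any later group: 0 of 7 tested in d15, d22 and d36, of 9 listed, with 1, 1 and 0 at an unadjusted p below 0.05. Thbd, the anticoagulant thrombomodulin, stood at 827 ± 35.6 RPKM in d0 and 1044 ± 82.7 in d22 (adjusted p = 0.0821). Nos3, the endothelial nitric oxide synthase, stood at 12.4 ± 0.450 and 18.5 ± 4.73 (adjusted p = 0.37). The list median was 0.25 in d22 and -0.10 in d36. After removal of the length and GC trend, 2 of the 7 were called lower in d36, beside 1515 of all 10113 genes in that fit.

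Of 8 listed genes that Klf2 and Klf4 are known to repress, 7 were tested, and 1, 1 and 3 rose in d15, d22 and d36 with 0 falls. Among all tested entries, 0.608%, 8.09% and 16.6% were called higher. Edn1, the gene of the vasoconstrictor endothelin, rose in d15 from 93.9 ± 10.6 to 146 ± 16.3 RPKM (adjusted p = 0.0332). Vcam1, an adhesion receptor for leukocytes, rose from 7.58 ± 2.13 to 26.4 ± 8.02 RPKM in d22 (adjusted p = 0.00526) and to 30.9 ± 17.0 in d36 (adjusted p = 0.00209). In d36 the adhesion receptor gene Icam1 (27.1 ± 4.03 to 52.9 ± 28.1 RPKM, adjusted p = 0.0389) and the chemokine gene Ccl2 (0.124 ± 0.188 to 129 ± 98.0 RPKM, adjusted p = 0.000106) rose as well. The summed RPKM of the 8 genes was 732 to 831 in d36 replicates 1, 7 and 8 and 461 in replicate 9, beside 457 to 575 in d0. Their mean log2(RPKM + 1) in replicate 9 was 3.97, above the 3.54 to 3.62 of d0. The part of other cell types in these rises was not tested.

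Endothelial genes that ETS and SOXF factors are known to drive were mostly not called. Of 23 tested, 1 rose and 0 fell in d15, 1 rose and 3 fell in d22, and 2 rose and 6 fell in d36, with medians of 0.10, -0.13 and -0.21. Over all entries tested, 0.608%, 8.09% and 16.6% were called higher and 0.573%, 7.1% and 7.37% lower. Vwf, the von Willebrand factor of storage granules, rose in d15 from 44.0 ± 3.43 to 97.5 ± 26.5 RPKM (adjusted p = 0.0261) and was at 71.2 ± 12.9 in d22 (adjusted p = 0.0463). Robo4, a guidance receptor that stabilises vessels, fell from 143 ± 8.49 to 97.0 ± 7.00 RPKM in d22 (adjusted p = 0.00928) and to 88.6 ± 14.3 in d36 (adjusted p = 0.0013). Icam2, an adhesion gene known as an Erg target, fell from 124 ± 7.83 to 88.2 ± 6.01 in d22 (adjusted p = 0.019). The Notch ligand gene Dll4 fell from 122 ± 4.32 to 93.4 ± 4.88 RPKM in d22 (adjusted p = 0.0467). Tie1, a receptor kinase gene, fell in d36 from 444 ± 26.6 to 276 ± 27.7 RPKM (adjusted p = 0.000603), and Mmrn2 fell with it (adjusted p = 0.00941). After removal of the length and GC trend, 0 rose and 2 fell in d22, and 0 rose and 11 fell in d36. Of the 10113 genes in that fit, 424 were called lower in d22 and 1515 in d36. The pan-endothelial markers given further on, except Ramp2 and Calcrl, are among the 23 targets too.

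Among 15 tested further transcription factors of the endothelium, of 23 listed, 0 rose and 1 fell in d15, 4 rose and 1 fell in d22, and 3 rose and 0 fell in d36. The fall in d15 was Meox1, a homeobox factor (11.02 ± 3.52 to 4.77 ± 1.14 RPKM, adjusted p = 0.0289). Nr2f2, the factor of venous identity, rose from 1.82 ± 0.575 to 4.86 ± 1.38 RPKM in d22 (adjusted p = 0.00296) and to 4.84 ± 1.33 in d36 (adjusted p = 0.0015). Nfatc1, a calcium-regulated factor, rose from 8.17 ± 0.858 to 12.95 ± 0.569 RPKM in d22 (adjusted p = 0.00277), and Mef2a and Mef2c are given above. The list median was 0.25, 0.39 and 0.28 in d15, d22 and d36, beside -0.02, 0.02 and 0.04 over all entries tested. Entries called higher made up 0.608%, 8.09% and 16.6% of all tested, and those called lower 0.573%, 7.1% and 7.37%.

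The entries most like each factor over the 16 libraries were Sorbs2 (r = 0.91) and Akap2 (0.90) for Fli1, Cnbd2 (0.93) and Rai14 (0.89) for Sox7, and Hoga1 (0.84) and Car2 (0.77) for Erg. For Ets1 they were Gm16982 (0.92) and Slc25a1 (0.91), for Sox17 Eid2b (0.90) and Osbpl2 (0.88), and for Sox18 Nhlrc1 (0.90) and Prkcdbp (0.89). Gata2 was most like Kif26a (0.90) and Snx21 (0.89), and Tal1 most like Ankrd13a (0.83) and Vgll4 (0.82). Of the 10 factors only Klf2 and Klf4 had another of the 10 among their nearest 2 entries. These are the highest of many coefficients over 16 libraries that share groups, and they are descriptions.

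The authors' deposited table lists its own log2 fold change and adjusted p-value per time point, with no comparison group named in the header. At an adjusted p below 0.05 the authors' deposited table has 1, 3 and 2 of the 10 factors higher in d15, d22 and d36, and 0, 1 and 1 lower. The authors' deposited table gives Fli1 a log2 fold change of 0.59 in d15 (adjusted p = 0.000136), where the limma value is 0.54 and was not called. For Klf2 the authors' deposited table gives -0.66 in d22 (adjusted p = 0.00437) and -0.49 in d36 (adjusted p = 0.0354), the latter not called here. Sox17 has 0.45 in d22 in the authors' deposited table (adjusted p = 0.0185), against 0.36 and no call in limma.

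Markers of endothelium were high in every library, and markers of several other cell types differed between groups. The 12 pan-endothelial markers averaged 8.49, 8.50, 8.50 and 8.33 on the log2(RPKM + 1) scale from d0 to d36, and 2 rose and 3 fell in d36 (median log2 fold change -0.35). With the trend in length and GC content removed, the d36 counts of those 12 were 1 higher and 8 lower (median -0.45). All of those 12 except Ramp2 and Calcrl are also in the list of ETS and SOXF target genes. The counts of the 2 lists are therefore not independent. Of 6 listed carcinoma cell markers 5 were in the table, and their summed RPKM was 3.97 to 6.37 in d0, 7.25 to 9.59 in d15, 8.61 to 11.8 in d22 and 50.7 to 843 in d36, with 4 of 4 tested called higher in d36. Summed over 11 leukocyte markers the range was 26.1 to 45.2 in d0, 47.8 to 135 in d15, 17.4 to 64.4 in d22 and 59.4 to 185 in d36, with 4 of 5 tested called in d36. For 3 platelet markers it was 0.326 to 0.676 in d0 and 1.01 to 11.5 in d36, and no marker of these lists, or of those that follow, was at 0 in all libraries. Other lists differed in d15 or d22 as well. The summed RPKM of 10 lung epithelium markers was 801 to 1983 in d0, 1270 to 3424 in d15, 1129 to 1613 in d22 and 474 to 1145 in d36, and of 9 tested 0 were called higher and 1 lower in d15. Myl7, a cardiomyocyte marker, fell from 10.5 ± 8.07 RPKM in d0 to 1.28 ± 0.38 in d15 (adjusted p = 0.0458), and Myl7 and Sln were called lower in d22 and in d36, although neither d22 call was kept with that trend removed. Hba-a1, a haemoglobin gene, rose from 0.908 ± 0.427 RPKM in d0 to 8.07 ± 6.21 in d15 (adjusted p = 0.0387) and was also called in d36. The 3 lymphatic markers in the table summed to 95.9 to 135 RPKM in d0, 159 to 257.8 in d15, 138 to 204 in d22 and 122 to 438 in d36. None of the 3 was called against d0, and 3, 3 and 1 had an unadjusted p below 0.05 in d15, d22 and d36. Of 7 proliferation markers 5 were tested, with 0 called in d15 and d22 and all 5 called higher in d36. The summed RPKM of 7 fibroblast and mural markers was 10.8 to 15.5 in d0 and 11.4 to 49.4 in d36, with 1 of 5 tested called higher in d36. Krt8 and Krt18 are in both the carcinoma and the lung epithelium list. Fli1, Ets1, Tal1 and Gata2 are also known from blood cells. The part of any of these cell types in the values of the 10 factors was not tested.

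The d36 libraries differed among themselves in these markers and in Fli1. Replicate 9, with the lowest carcinoma marker sum of d36 (50.7), also had the lowest Fli1 (35.8 RPKM), just above the highest d0 library (34.1). It was lowest of d36 as well in leukocyte (59.4), fibroblast and mural (11.4) and proliferation markers (22.3). Its lung epithelium (1145) and erythroid (14.5) sums were the highest of d36. In replicates 1, 7 and 8 the carcinoma sums were 843, 735 and 538, and Fli1 read 45.4, 51.6 and 46.8 RPKM. A fit added after the data had been seen left out replicates 1, 7 and 8. In it d36 has 1 library and borrows the spread of the other groups. The d36 change was then 0.28 for Fli1 and 0.32 for Sox7. Replicate 9, the library kept, had the lowest limma array weight of all libraries (0.221). Over the fits that left out 1 library of d0 or d36, the d36 change was 0.51 to 0.69 for Fli1 and 0.39 to 0.46 for Sox7. In d22 the carcinoma sum was 8.61 to 11.8, above the 3.97 to 6.37 of d0, and in d15 it was 7.25 to 9.59. Of the 4 tested carcinoma markers, 0 were called in d22, and 0 had an unadjusted p below 0.05. The d22 changes from d0 were 0.76 for Fli1 and 0.65 for Sox7, beside 0.58 and 0.43 in d36. The difference between d36 and d22 was not called for either (adjusted p = 0.419 and 0.241). The part of carcinoma cells, or of any other cells, in these changes was not tested. Immediate-early and dissociation genes, which cell isolation is known to raise, were called higher in 1, 2 and 18 of 23 in d15, d22 and d36. Their summed RPKM was highest in d36 replicate 7 (9134), and within d36 it was lowest in replicate 9 (1439). The part of this response in the Klf2 and Klf4 values was not tested.

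**Figure D5:**
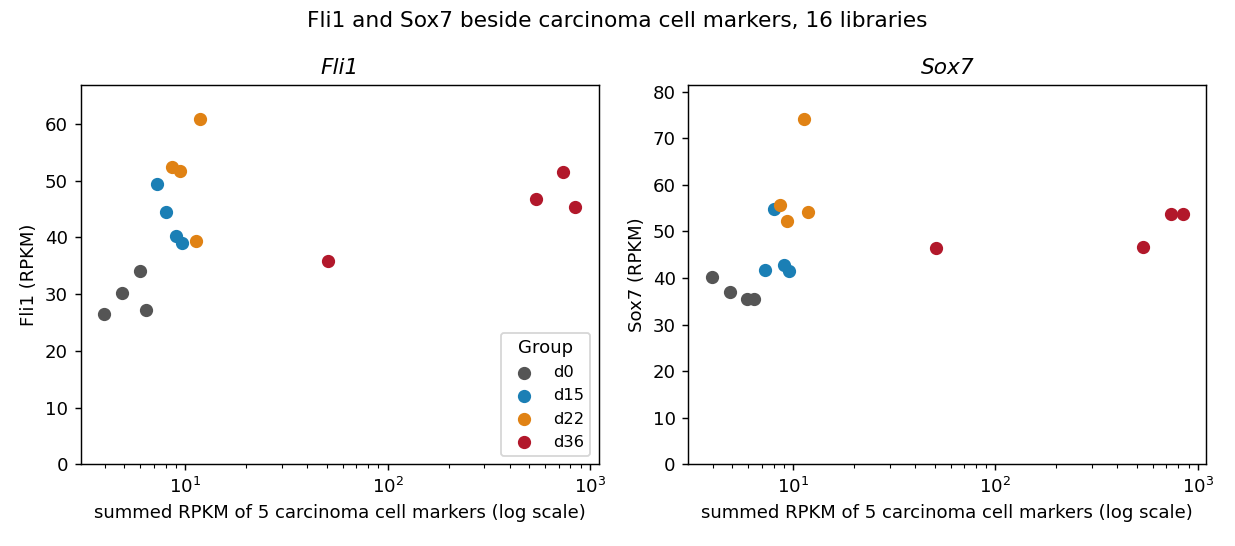
Fli1 and Sox7 RPKM (y axis) against the summed RPKM of 5 carcinoma cell markers (x axis, log scale) in the 16 libraries, coloured by group. Fli1 and Sox7 are higher in d22 than in d0, and so are the marker sums (8.61 to 11.8 in d22 and 3.97 to 6.37 in d0). Of the 4 tested markers, 0 were called in d22. The 4 d36 libraries reach from 50.7 to 843.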

How the data were processed

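RNA was sequenced from 16 libraries of sorted lung endothelial cells. Per the labels' protocols, the PicoPure kit gave the RNA, and 10 ng of it went into SMARTer Ultra Low libraries. Per the file headers, the table the authors deposited gives RPKM for every library and, for each later time point, a log2 value of the fold change with its adjusted p-value. The submitters' processing notes name STAR, DESeq2 and mm10, with no role or version, and the annotation behind RPKM was not given. Of the 17715 entries, 14303 reached 1 RPKM in 4 or more libraries and were tested.

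From the deposited RPKM, log2(RPKM + 1) was fitted with limma 3.58.1 in R 4.3.3, with an intensity trend, over all 4 groups (12 residual degrees of freedom), so that fold changes of low genes are understated. The 6 contrasts were tested two-sided and adjusted by Benjamini-Hochberg within a contrast, and a moderated F test joined the contrasts with d0. The fit was tested on simulated data first. Depth was estimated from whole-read steps of low values; most entries did not come out whole, so no count test was run. P-values rest on the spread between libraries of the same group, pooled over the 4 groups and moderated across genes. A contrast of 2 groups therefore also depends on the spread within the other groups. The factors and all gene lists were chosen with earlier results of these data known. Named genes are all 10 factors, the nearest 2 entries of each, and up to 4 called genes per list and comparison, lowest adjusted p first; Map3k2 and Map3k3 in d22, Thbd and Nos3 were named after their values were seen. Gene positions are from GENCODE M21 (mm10). Promoter sequences matched 5 of the 10 factors. Alternatives were the pseudocount, the filter, centring, quantile normalization, array weights, fits of 2 groups, a replicate block, leaving out single libraries, and, added later, removal of the length and GC trend (with the same entries and the trend kept as its counterpart) and of d36 libraries.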

Additional observations from a re-analysis of the deposited data

Results flagged for a closer look

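Of the 40 sets of 4 libraries (10 factors in 4 groups), 3 held a library that stood apart by Dixon's gap test, and chance flags about 1 in 20. Sox7 in d15 replicate 3 was at 54.9 RPKM, with the other 3 libraries between 41.5 and 42.7. Sox7 in d22 replicate 6 was at 74.1 RPKM, with the others between 52.3 and 55.6. Sox18 in d36 replicate 7 was at 291 RPKM, with the others between 121 and 137. That library also had the highest sum of immediate-early genes (9134 RPKM) and of lymphatic markers (438 RPKM, against 122 to 139 in the other d36 libraries), and the part of either in the Sox18 value was not tested. The d22 call of Sox7 was kept without replicate 6.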

How the results depend on the processing

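Of 10 factors, 0 were called in d15, and 1 (Fli1) with quantile normalization, with array weights, in a fit of only d0 and d15, with all d36 libraries left out and with d36 libraries 1, 7 and 8 left out (adjusted p = 0.0262, 0.0141, 0.0283, 0.0314 and 0.0314). In d36 the count of 2 became 1 with median centring and with quantile normalization, and 0 with the length and GC trend removed. With that trend removed, 1016 of 10113 entries were called higher and 1515 lower in d36. The fit without d36 libraries 1, 7 and 8 leaves 1 library in d36, and its d36 changes are given above. Leaving out single libraries gave 1 to 2 calls in d36 (1 without d36 replicate 1, where Sox7 had an adjusted p of 0.052), 2 to 3 in d22, and 0 to 1 for d22 against d15 (Sox7, adjusted p = 0.0488 without d15 replicate 3). For d36 against d22, quantile normalization called 3, all lower (Fli1, Sox7 and Gata2), where the main count was 0. Over all 14303 entries it called 929 higher and 899 lower there, and the main fit 1249 and 439. Replicate numbers of different groups were not taken as pairs in the main fit. Around the group means, 9 same-number pairs of libraries had correlations of -0.11 to 0.22, and 2 of them were over 0.1. The 87 other pairs ran from -0.36 to 0.35, with 26 over 0.1. So few same-number pairs cannot settle whether libraries of 1 number shared a step of handling. With a replicate block (4 residual degrees of freedom) the d36 count was 0 and the F test count went from 2 to 1. That fit called 965 of all tested entries higher and 169 lower in d36. Klf2 in d22 also lost its call with a pseudocount of 5, no filter and quantile normalization (adjusted p = 0.052, 0.0736 and 0.0786). Fli1 and Sox7 kept their d22 calls in all of these settings, with an adjusted p of at most 0.0332 and 0.0232, and no called factor changed direction. The cause of these differences was not tested. Over all entries, median centring moved the calls from 1157 higher and 1016 lower to 898 and 1362 in d22, and from 2376 and 1054 to 1500 and 2439 in d36, and quantile normalization gave 1713 and 1980 in d36. The fit with array weights called 370 higher and 367 lower in d15, where the main fit called 87 and 82. In d15 quantile normalization called 105 and 96, and the fit of only d0 and d15 called 262 and 216. The fit without all d36 libraries called 342 and 310 there. The planned length and GC fit over all entries was not run because 76.3% of them, under 80%, had a length.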
